A study of Mus musculus with 8 samples.

Results

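The matrix metalloproteinases (MMPs), their tissue inhibitors (TIMPs) and the related ADAM, ADAMTS and ADAMTS-like (ADAMTSL) proteins were examined in total mammary cell suspensions from parous and virgin mice. A gene was taken as a member when its symbol began with Mmp, Timp, Adam, Adamts or Adamtsl followed by a number and when a probe set named it alone. This gave 83 genes on 108 of the 34760 probe sets, out of 19935 genes named on the array, and the probe set with the highest mean over the arrays stood for each gene. The 83 members were 22 MMPs, 4 TIMPs, 34 ADAMs, 18 ADAMTS and 5 ADAMTSL genes. A further 2 probe sets named a member beside other genes and were not counted, and Mmp15 and Adamts2 were not analysed here.

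The suspensions came from the fourth mammary glands of FVB/NHanHsd mice, with 4 parous pools and 4 age-matched virgin pools of 5 mice each and 1 Affymetrix Mouse Gene 1.0 ST array per pool. Mating of the parous mice took place at an age of 42 days and lactation lasted 21 days. The labels allot 28 days to involution, the regression of the gland after weaning, whereas the methods give a longer postweaning period, so the interval is not settled here. Virgin mice were of the same age and had not been pregnant, and neither group was sorted or treated with an agent. Lymph nodes, adipocytes, red blood cells and part of the fibroblasts had been removed according to the methods, and no estrous stage was given for each pool.

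MMPs are zinc proteases that are secreted or held at the cell surface as inactive precursors, and between them they cut collagens, elastin, proteoglycans and many other proteins outside the cell. TIMPs bind the active site of MMPs, and Timp3 also inhibits several ADAM and ADAMTS proteases. ADAMs release growth factors, cytokines and receptors from the cell surface, ADAMTS proteases cut proteoglycans and process procollagens, and ADAMTSL proteins resemble ADAMTS proteins without a protease domain. In the mammary gland, MMPs and TIMPs are known for branching of the ducts and for breakdown of the basement membrane during involution.

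Of the 22 MMP genes, 10 lie on chromosome 9 in the order Mmp13, Mmp12, Mmp1b, Mmp3, Mmp1a, Mmp10, Mmp8, Mmp27, Mmp20 and Mmp7. Several of them are known to be induced through AP-1, the Fos and Jun transcription factor, so the promoter windows of RefSeq (build GRCm38.p6, 250 bases before to 50 bases after the start) were searched for TGAGTCA on both strands, which reads TGACTCA on the other. Of the 52 members with a window, 10 held a match (19.2%), against 1607 of 27025 genes with a window (5.95%). The 10 included 7 of the 10 MMP genes on chromosome 9 (Mmp13, Mmp12, Mmp1b, Mmp3, Mmp1a, Mmp10 and Mmp7), together with Adam19, Adam1b and Adam29. Because the genes on chromosome 9 prompted the search, the higher share among members cannot count as a separate result. The 100 bases before the start are shown for the 3 of these 7 that were not dim on the arrays, with the match in capitals, because these neighbours with a match at a similar distance had log2 fold changes of opposite sign.
Mmp13, chr9:7272414-7272513, plus strand: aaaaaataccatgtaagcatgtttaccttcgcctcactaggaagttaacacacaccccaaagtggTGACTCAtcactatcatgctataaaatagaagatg
Mmp12, chr9:7347274-7347373, plus strand: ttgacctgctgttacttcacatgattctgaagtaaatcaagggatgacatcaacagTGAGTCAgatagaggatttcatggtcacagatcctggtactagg
Mmp3, chr9:7445722-7445821, plus strand: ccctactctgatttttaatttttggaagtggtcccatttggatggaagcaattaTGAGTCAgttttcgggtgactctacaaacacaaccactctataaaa
The match began 35, 44 and 46 bases before the start in Mmp13, Mmp12 and Mmp3. A match describes the letters only.

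All values are log2 RMA values, which are background-corrected and quantile normalized, and array medians lay between 6.29 and 6.43. A gene was called dim when its mean over the 8 arrays was below 6.29, the lowest array median. Arrays correlated at 0.976 to 0.993, and virgin replicates 2 and 4 stood apart from the other 6. The labelled epithelium was present, since none of 10 luminal and none of 10 basal markers was dim. The mean level of the luminal markers was 10.98 to 11.04 in parous and 11.14 to 11.38 in virgin arrays, and that of the basal markers was 10.49 to 10.69 in parous and 10.81 to 11.09 in virgin arrays. The suspensions also held other cells, and fibroblast markers had a mean level of 9.89 to 10.59 in parous and 9.51 to 10.11 in virgin arrays, with 8 of 10 above 0 in log2 fold change and a median of 0.36. The macrophage markers were at 9.42 to 9.96 in parous and 9.38 to 9.70 in virgin arrays, and 7 of 10 neutrophil markers were dim. The proliferation markers were at 6.24 to 6.61 in parous arrays, against 6.95, 8.58, 6.93 and 9.17 in virgin replicates 1 to 4. In such suspensions, fewer cells of a type and less RNA per cell cannot be told apart.

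No member passed the criteria, for which the linear fold change had to exceed 1.5, the limma p adjusted over all probe sets had to lie under 0.05 and the mean log2 value had to exceed 2. Of all 19935 genes, 80 passed (0.401%), 36 of them higher and 44 lower in parous suspensions. The lowest adjusted p among the members was 0.080, for Mmp12. At an unadjusted p under 0.05 in limma, 23 of the 83 members were past the threshold (27.7%), 15 higher and 8 lower in parous suspensions, against 14.0% of all genes (6.54% higher and 7.49% lower). By the methods' t-test, 20 members had an unadjusted p under 0.05 (24.1%), against 13.1% of all genes, and none had an adjusted p under 0.05. The parous and virgin arrays did not overlap in 18 members (21.7%), 10 higher and 8 lower in parous suspensions, against 9.56% of all genes. Lack of overlap by itself fixes the exact permutation p of these 18 at the smallest that 4 arrays against 4 allow (2-sided, p = 0.029), so this p adds no further support. Without virgin replicates 2 and 4, 11 members had an unadjusted p under 0.05 (13.3%), against 7.68% of all genes, and the count was 14 without virgin replicate 2 alone and 15 without parous replicate 3 alone, against 8.53% and 9.6% of all genes.

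The protease and inhibitor genes with signal in these cells were 42 of the 83, and the other 41 were dim. The dim members were 25 ADAMs, among them all 21 known for testis and epididymis, 10 MMPs, 5 ADAMTS genes and 1 ADAMTSL gene, and no TIMP was dim. Of the 42 members that were not dim, 20 had an unadjusted p under 0.05 (47.6%) against 19.1% of the genes that were not dim, and 15 did not overlap (35.7%) against 12.9%. By family, the median log2 fold change was 0.02 for MMPs (0.21 for the 12 that were not dim), 0.27 for TIMPs, 0.03 for ADAMs, 0.07 for ADAMTS genes and 0.44 for ADAMTSL genes, beside 0.0024 over all genes. The family medians lay near 0 apart from those of the TIMPs and the ADAMTSL genes, and the spread within the MMP and ADAMTS families was wide. Without virgin replicate 4 the TIMP median was 0.097. Beyond a fold change of 1.5 were 9 of the 83 members, beside 866 of all 19935 genes (419 higher and 447 lower in parous suspensions). Of these members, Mmp3, Mmp9, Mmp11, Adamts5 and Adamtsl1 were higher and Mmp12, Mmp13, Adamts7 and Adamts18 lower in parous suspensions.

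**Figure D1:**
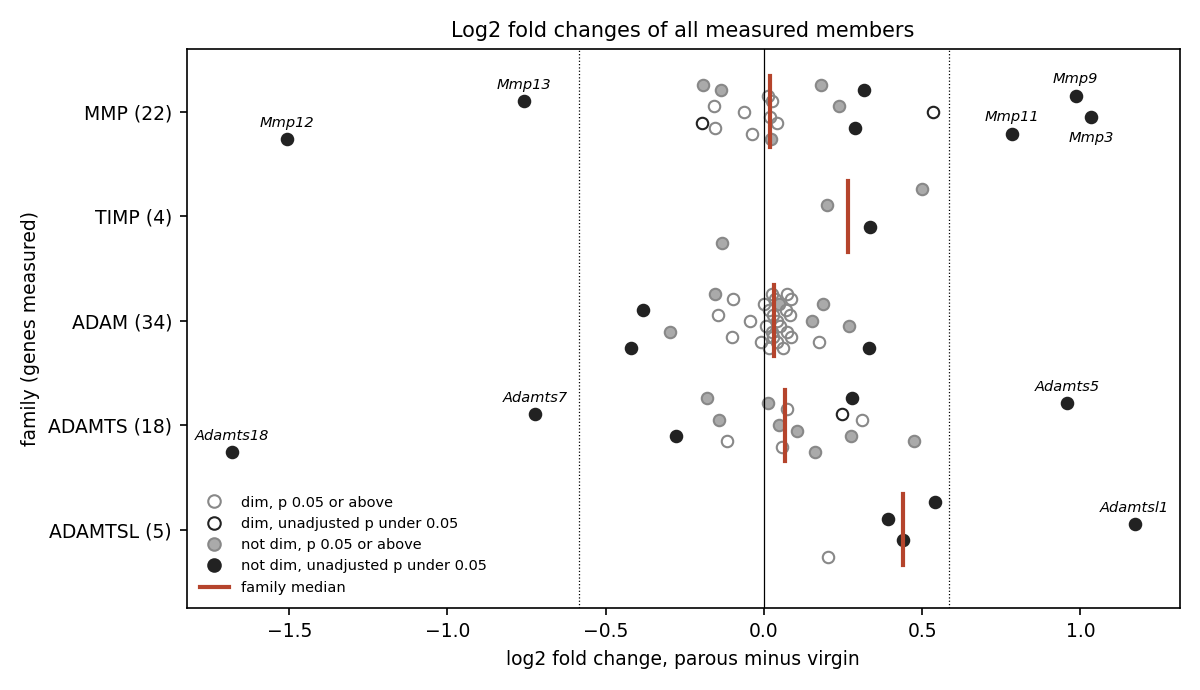
Log2 fold change (parous minus virgin) of all 83 members by family, 1 point per gene, with the family median as a vertical bar and dotted lines at a fold change of 1.5. The ADAMTSL points all lie above 0, whereas the MMP and ADAMTS points spread from -1.51 to 1.03 and from -1.68 to 0.96.

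Among the MMPs that cut collagen and elastin, Mmp12 and Mmp13 had lower values in parous suspensions. Mmp12, macrophage elastase, had log2 values of 7.10, 7.77, 7.40 and 7.31 in parous arrays, against 8.85, 9.53, 8.15 and 9.08 in virgin arrays. The groups did not overlap, with virgin replicate 3 nearest to the parous arrays. The log2 fold change was -1.51 (standard error 0.28, with a 95% confidence interval from -2.14 to -0.88, 2.84-fold lower, adjusted p = 0.080 from limma). Without virgin replicate 3 the gene passed the criteria (log2 fold change -1.76, adjusted p = 0.013 from limma), and without virgin replicates 2 and 4 it did not (-1.11, adjusted p = 0.25 from limma). It also passed when only probe sets that name 1 gene were tested, with an adjusted p of 0.045 from limma at the same log2 fold change. Of the 10 macrophage markers, none of which was dim, 8 had log2 fold changes above 0, with a median of 0.24, and the other 2, Mpeg1 and Cx3cr1, were at -0.39 and -0.38. Their part in the values of Mmp12 was not tested.

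Mmp13, collagenase-3, had values of 6.25, 6.28, 5.48 and 5.93 in parous arrays, against 6.91, 7.05, 6.62 and 6.39 in virgin arrays. It did not overlap between the groups, and its parous mean was below the limit for dim signal. Its log2 fold change was -0.76 (standard error 0.21, adjusted p = 0.22 from limma), and the fold of 1.69 rests on a dim signal in the parous arrays. The other collagenases, Mmp1a, Mmp1b and Mmp8, were dim, with log2 fold changes of 0.04, -0.06 and 0.03.

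Both gelatinases, which cut denatured collagen and basement membrane collagen IV, had higher values in parous suspensions without passing the test. Mmp9, gelatinase B, was at 9.02, 8.97, 9.42 and 9.35 in parous arrays, against 8.68, 7.41, 8.97 and 7.76 in virgin arrays. Virgin replicate 3 lay just under the lowest parous array, and virgin replicates 2 and 4 were the low ones. This gave a log2 fold change of 0.99 (standard error 0.33, with a 95% confidence interval from 0.23 to 1.74, adjusted p = 0.31 from limma), and it was 0.37 without virgin replicates 2 and 4. The B and plasma cell markers were also lowest in these arrays. Their mean levels were 9.04 to 9.93 in parous arrays, against 8.73, 7.80, 9.69 and 7.91 in virgin replicates 1 to 4. Among virgin arrays, replicates 2 and 4 were also the lowest in macrophage, neutrophil, T and NK cell, endothelial, pericyte and adipocyte markers. This did not hold for luminal, basal, fibroblast, mast cell and proliferation markers. The part of any of these lists in the difference was not tested. Mmp2, gelatinase A, averaged 11.71 ± 0.19 in parous and 11.42 ± 0.10 in virgin suspensions (SD, n = 4 each), a log2 fold change of 0.29 (adjusted p = 0.36 from limma).

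Of the 3 stromelysins and related genes, Mmp3 and Mmp11 had log2 fold changes above 0, and Mmp10, stromelysin-2, was dim at -0.15. Mmp3, stromelysin-1, which cuts laminin and proteoglycans and activates other MMPs, had values of 7.85, 8.68, 8.83 and 9.30 in parous arrays, against 7.53, 7.39, 7.82 and 7.78 in virgin arrays. Parous replicate 1 lay only just above the highest virgin arrays, and the other 3 parous arrays were well above them. The difference amounted to a log2 fold change of 1.03 (standard error 0.27, with a 95% confidence interval from 0.41 to 1.66, 2.05-fold higher, adjusted p = 0.20 from limma), and without parous replicate 1 it was 1.30 with an adjusted p of 0.0504 from limma. The fibroblast markers had mean levels of 9.89, 10.13, 10.26 and 10.59 in parous replicates 1 to 4, which is the same order as for Mmp3, against 9.74, 9.51, 10.04 and 10.11 in virgin replicates 1 to 4, and their part in the difference was not tested. Mmp11, stromelysin-3, a protease of the stroma around epithelium, had values of 7.99, 7.99, 8.67 and 8.18 in parous arrays, against 7.59, 7.28, 7.62 and 7.20 in virgin arrays. The groups did not overlap, and the log2 fold change was 0.79 (standard error 0.17, 1.72-fold higher, adjusted p = 0.13 from limma).

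**Figure D2:**
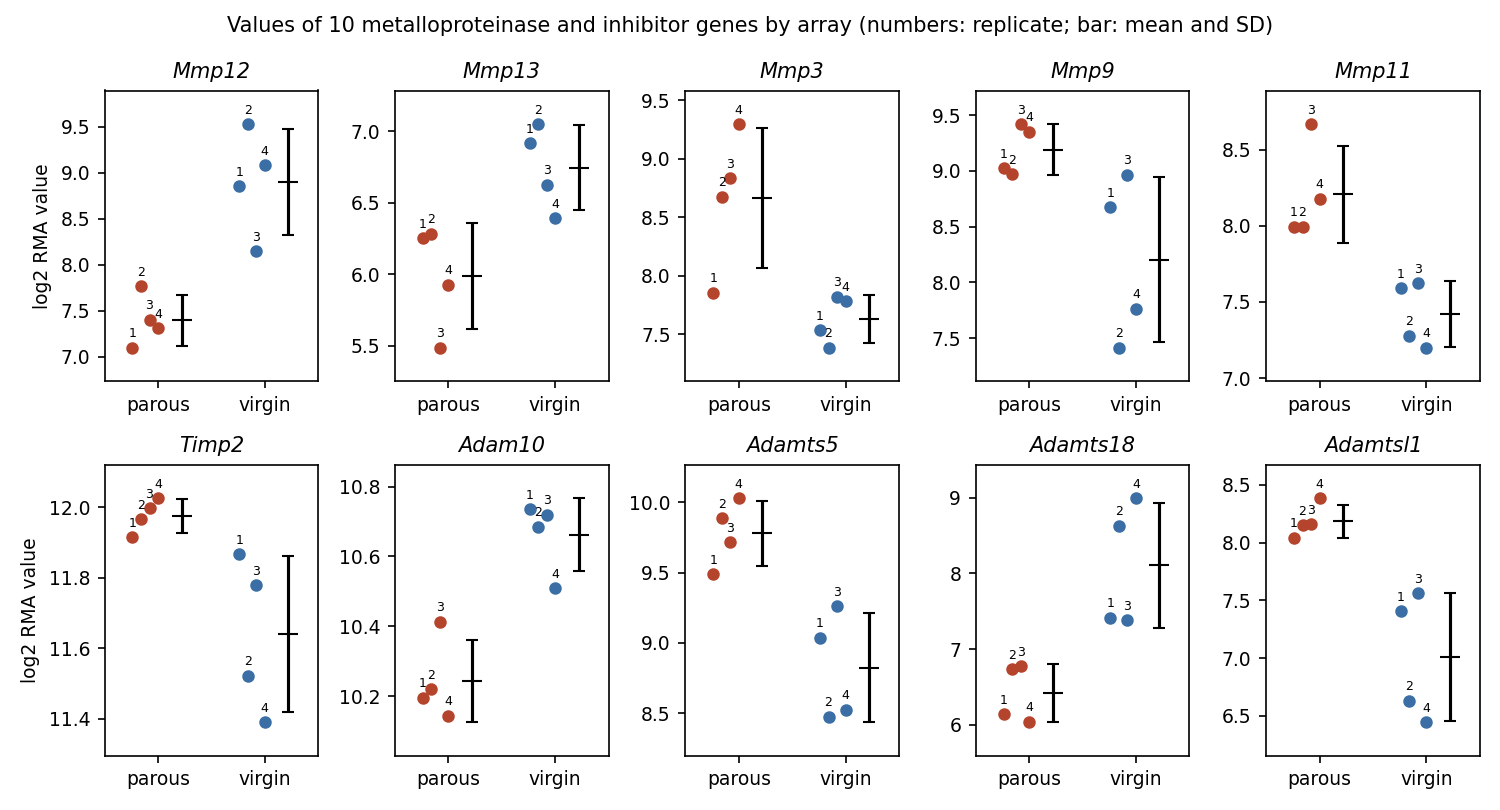
Log2 RMA values of 10 members on each array, parous on the left and virgin on the right, with the replicate number above each point, the mean and SD as a bar, and a separate vertical scale for each gene. All 10 genes shown are among the 18 of 83 members without overlap between parous and virgin arrays (21.7%, against 9.56% of all genes). The lack of overlap in the panels thus comes with the choice of genes. Virgin replicates 2 and 4 are the virgin arrays farthest from the parous arrays for Mmp12, Mmp9, Mmp11, Timp2, Adamts5, Adamts18 and Adamtsl1, but not for Mmp13, Mmp3 and Adam10.

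The membrane-type MMPs had log2 fold changes near 0. Mmp14, which activates the Mmp2 precursor at the cell surface, averaged 10.49 ± 0.12 in parous and 10.63 ± 0.08 in virgin suspensions (SD, n = 4 each), with a log2 fold change of -0.14 and a 95% confidence interval of -0.33 to 0.06. Mmp16 had a log2 fold change of -0.19 (95% confidence interval -0.40 to 0.02), and the 5 membrane-type members lay between -0.19 and 0.02. Mmp23, another membrane-anchored MMP, averaged 7.33 ± 0.18 in parous and 7.02 ± 0.19 in virgin suspensions (SD, n = 4 each), a log2 fold change of 0.32 (adjusted p = 0.39 from limma). Mmp7, matrilysin, an epithelial protease, was dim at 4.80 ± 0.16 in parous and 4.84 ± 0.25 in virgin suspensions (SD, n = 4 each). Mmp27, singled out after its values were seen, was dim by its mean and had values of 6.17, 6.34, 6.38 and 6.42 in parous arrays, against 5.55, 5.72, 6.06 and 5.83 in virgin arrays. These did not overlap, and the log2 fold change was 0.54 (adjusted p = 0.13 from limma).

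**Figure D3:**
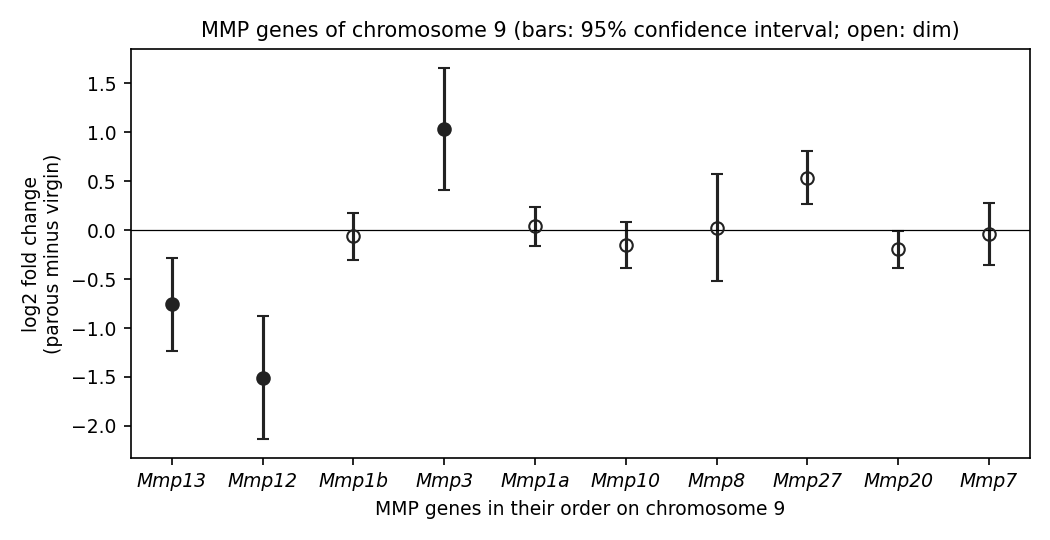
Log2 fold change (parous minus virgin) of the 10 MMP genes on chromosome 9 in their order along it, with bars for the 95% confidence interval and open points for dim genes. The neighbours Mmp13 and Mmp12 lie at -0.76 and -1.51 and Mmp3 at 1.03, whereas the dim genes other than Mmp27 lie between -0.20 and 0.04.

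None of the 4 inhibitors passed the test, and 3 of them had log2 fold changes above 0. Timp2, which binds Mmp14 and Mmp2 as well as inhibiting MMPs, had values of 11.91, 11.97, 12.00 and 12.02 in parous arrays, against 11.87, 11.52, 11.78 and 11.39 in virgin arrays. The parous arrays lay close together and just above the highest virgin array. The resulting log2 fold change was 0.34 (standard error 0.11, with a 95% confidence interval from 0.08 to 0.59, adjusted p = 0.31 from limma), and 0.15 without virgin replicates 2 and 4. Timp3, the inhibitor bound to the matrix, averaged 12.39 ± 0.10 in parous and 12.20 ± 0.23 in virgin suspensions (SD, n = 4 each), a log2 fold change of 0.20 that was 0.10 without virgin replicate 4 and 0.025 without virgin replicates 2 and 4. Timp4 had values of 8.67, 9.06, 8.83 and 7.74 in parous arrays, against 8.54, 8.47, 8.45 and 6.85 in virgin arrays. Replicate 4 was the lowest in both groups, and the log2 fold change of 0.50 had a 95% confidence interval of -0.47 to 1.47 and was 0.09 without virgin replicate 4. The endothelial and pericyte markers were likewise lowest in replicate 4 of each group, at mean levels of 10.74 and 9.46 in parous and 10.14 and 8.77 in virgin replicate 4. So were the adipocyte markers, 3 of 5 of them dim, at 6.60 in parous and 6.48 in virgin replicate 4. The luminal markers were lowest there too, at 10.98 and 11.14. The part of any of these lists in the values of Timp4 was not tested. Timp1, which is induced by growth factors and cytokines, averaged 9.21 ± 0.12 in parous and 9.34 ± 0.33 in virgin suspensions (SD, n = 4 each), a log2 fold change of -0.13.

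Among the 9 ADAM sheddases of somatic tissues, 8 were not dim, and Adam10 had the lowest adjusted p. Adam10, which releases betacellulin and the extracellular parts of Notch receptors and E-cadherin, had values of 10.20, 10.22, 10.41 and 10.14 in parous arrays, against 10.73, 10.69, 10.72 and 10.51 in virgin arrays. The groups did not overlap, and both were narrow. The log2 fold change was -0.42 (standard error 0.088, with a 95% confidence interval from -0.62 to -0.22, 1.34-fold lower, adjusted p = 0.12 from limma), and -0.48 without virgin replicates 2 and 4. Adam8, a sheddase of leukocytes, had values of 8.24, 8.17, 7.70 and 8.16 in parous arrays, against 8.49, 8.70, 8.34 and 8.26 in virgin arrays, a log2 fold change of -0.38 (adjusted p = 0.37 from limma) with no overlap. Adam17, the enzyme that releases tumour necrosis factor and amphiregulin, averaged 9.51 ± 0.06 in parous and 9.66 ± 0.10 in virgin suspensions (SD, n = 4 each), a log2 fold change of -0.16 with a 95% confidence interval of -0.33 to 0.02. Adam12 had a log2 fold change of -0.30, Adam33 of 0.33, Adam19 of 0.27, Adam15 of 0.15 and Adam9 of 0.05, with adjusted p values of 0.34 to 0.89 from limma. Adam23, an adhesive ADAM without protease activity, had a log2 fold change of 0.19. The 21 ADAMs of testis and epididymis lay between -0.14 and 0.18.

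The ADAMTS proteases included the member with the lowest log2 fold change of all 83. Adamts18, which in the mouse mammary gland acts in myoepithelial cells downstream of steroid hormones and remodels the basement membrane, had values of 6.14, 6.74, 6.77 and 6.04 in parous arrays, against 7.41, 8.63, 7.38 and 8.99 in virgin arrays. The groups did not overlap, and virgin replicates 2 and 4 were the high arrays. The difference amounted to a log2 fold change of -1.68 (standard error 0.39, with a 95% confidence interval from -2.57 to -0.80, 3.21-fold lower, adjusted p = 0.15 from limma), and it was -0.98 without virgin replicates 2 and 4. Adamts7, which cuts cartilage oligomeric matrix protein, had the same virgin arrays on top, with 6.90, 7.09, 7.13 and 7.30 in parous arrays, against 7.48, 8.19, 7.32 and 8.32 in virgin arrays. Its log2 fold change was -0.72 (standard error 0.23, adjusted p = 0.29 from limma), and -0.29 without virgin replicates 2 and 4. These are the arrays with the highest proliferation markers. The basal markers had mean levels of 10.49 to 10.69 in parous arrays, against 10.81, 10.92, 11.09 and 10.99 in virgin replicates 1 to 4. The part of either list in the differences was not tested. Adamts17 stood at a log2 fold change of -0.28 (limma adjusted p = 0.23), and its 5 probe sets lay between -0.73 and -0.08. Adamts12, a relative of Adamts7, had a log2 fold change of -0.18.

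Of the 7 ADAMTS proteases that cut versican, aggrecan or related proteoglycans, 5 had log2 fold changes above 0, and the other 2, Adamts8 and the dim Adamts20, were at -0.14 and -0.12. Adamts5, a main aggrecanase and versicanase, had values of 9.49, 9.89, 9.72 and 10.03 in parous arrays, against 9.04, 8.47, 9.26 and 8.52 in virgin arrays. The groups did not overlap. This gave a log2 fold change of 0.96 (standard error 0.20, with a 95% confidence interval from 0.50 to 1.41, 1.94-fold higher, adjusted p = 0.11 from limma), and 0.63 without virgin replicates 2 and 4. Adamts4 averaged 11.59 ± 0.16 in parous and 11.12 ± 0.53 in virgin suspensions (SD, n = 4 each), a log2 fold change of 0.48 that was 0.11 without virgin replicates 2 and 4. Adamts15 had a log2 fold change of 0.28, Adamts1 of 0.11 and Adamts9 of 0.01, and the 6 probe sets of Adamts9 lay between -0.04 and 0.08. Adamts10, which binds fibrillin-1, had a log2 fold change of 0.27. Adamts3, a procollagen N-proteinase, had 16 probe sets between -0.06 and 0.11, and none had an unadjusted p under 0.05.

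The 5 ADAMTSL genes, whose proteins lack a protease domain and in several cases bind fibrillin microfibrils, all had log2 fold changes above 0, and 4 of them had no overlap between the groups, as had 9.56% of all genes. In Adamtsl2, the dim one of these 4, the lowest parous and the highest virgin array were both at 6.02 after rounding. Adamtsl1 had the highest log2 fold change of all 83 members. Its values were 8.04, 8.15, 8.16 and 8.38 in parous arrays, against 7.41, 6.63, 7.56 and 6.45 in virgin arrays. The parous arrays were close together and the virgin arrays formed a higher pair, replicates 1 and 3, and a lower pair, replicates 2 and 4. The log2 fold change was 1.17 (standard error 0.25, with a 95% confidence interval from 0.61 to 1.74, 2.25-fold higher, adjusted p = 0.12 from limma), 1.14 on the other probe set of the gene, and 0.70 without virgin replicates 2 and 4. Adamtsl5 had values of 7.55, 7.83, 7.86 and 7.89 in parous arrays, against 7.38, 7.21, 7.50 and 7.28 in virgin arrays, a log2 fold change of 0.44 (adjusted p = 0.15 from limma). Adamtsl4, needed for anchoring of the lens of the eye, averaged 8.38 ± 0.06 in parous and 7.99 ± 0.28 in virgin suspensions (SD, n = 4 each), a log2 fold change of 0.39. Adamtsl3 had a log2 fold change of 0.54 with a dim virgin mean of 6.14, and Adamtsl2 was dim at 0.20. The pericyte markers had mean levels of 9.46 to 9.93 in parous arrays, against 9.71, 9.19, 9.54 and 8.77 in virgin replicates 1 to 4. Virgin replicates 2 and 4 were also the lowest virgin arrays in endothelial, macrophage, neutrophil, T and NK cell, B and plasma cell and adipocyte markers. The part of any of these lists in the differences was not tested. Without virgin replicates 2 and 4 the median of the 5 was 0.16, against 0.44 with all arrays.

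**Figure D4:**
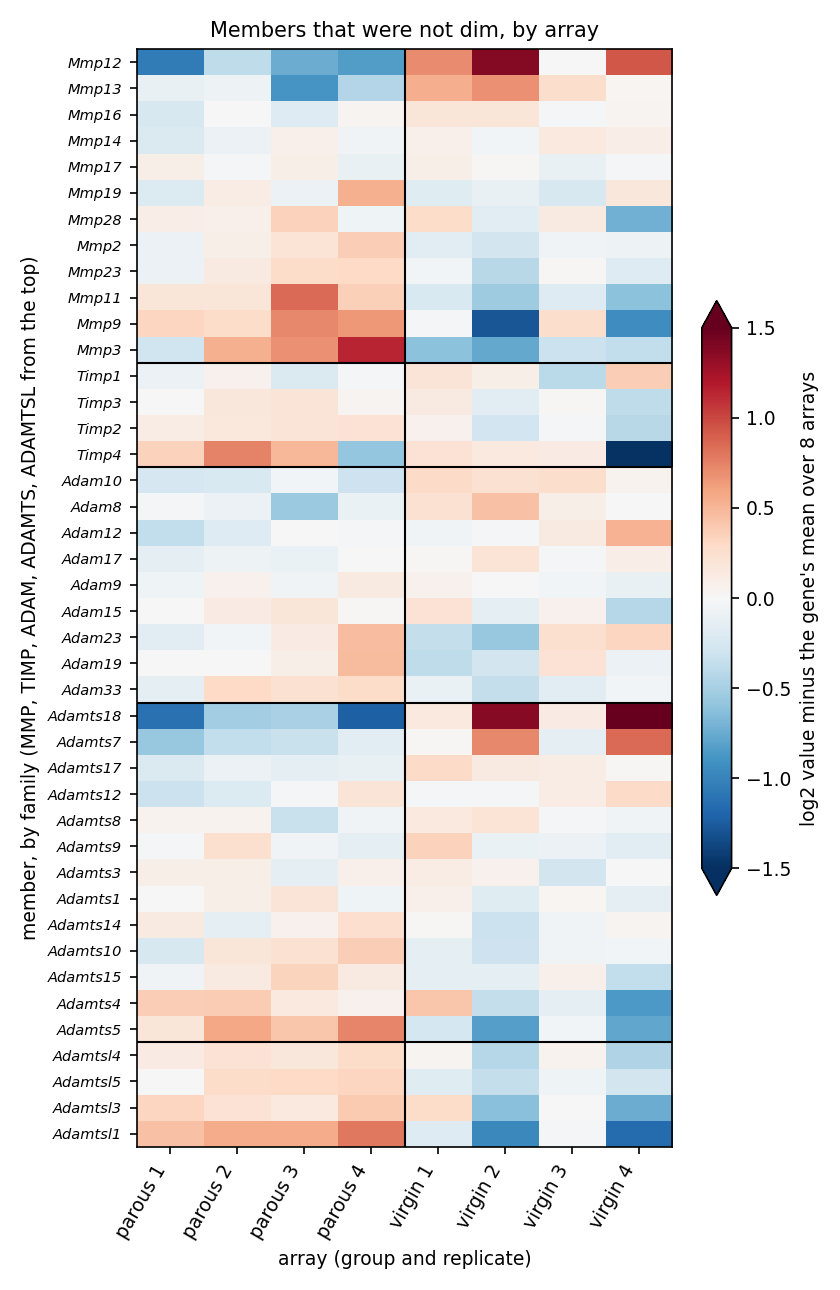
Log2 values of the 42 members that were not dim, each minus its mean over the 8 arrays, with parous arrays on the left and virgin arrays on the right and families separated by black lines. Virgin replicates 2 and 4 have the strongest colours in rows such as Adamts18, Adamtsl1, Adamts5 and Mmp9.

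The pattern in the map of values by array was counted. In 13 of the 23 members with an unadjusted p under 0.05 (56.5%), virgin replicates 2 and 4 were the virgin arrays farthest from the parous mean, as in 1762 of the 2798 genes past that threshold (63.0%). The share of members was thus near that of all genes.

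Other genes of the protease network were taken from 4 lists, and none of their members passed the criteria. Of 7 genes listed under plasminogen activation, the serine protease cascade upstream of several MMPs, none had an unadjusted p under 0.05. Their median log2 fold change was -0.05. Hgf and Plaur lay farthest from 0 among them, at -0.33 and -0.26. Plaur is the urokinase receptor, whereas Hgf is a growth factor and not a protease or inhibitor of this cascade. Of 18 activators and cell surface regulators, 3 were higher and 1 was lower in parous suspensions at an unadjusted p under 0.05, a threshold passed by 6.54% and 7.49% of all genes in these directions, and the median was 0.02. These included Reck, a membrane-anchored MMP inhibitor, at 0.51 (adjusted p = 0.30 from limma), and Lrp1, the endocytic receptor that clears MMPs and TIMPs, at 0.46 (adjusted p = 0.31 from limma). The convertase Furin, which activates the membrane-type MMPs and most ADAMs, had a log2 fold change of 0.03.

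Of 21 substrates shed by ADAMs, 2 were higher and 6 were lower in parous suspensions at an unadjusted p under 0.05, beside 6.54% and 7.49% of all genes, with a median of -0.02. Of the substrates of Adam10 named above, Btc, betacellulin, was at -0.56 (adjusted p = 0.046 from limma, with a fold under 1.5), Cdh1, E-cadherin, was at -0.33 (adjusted p = 0.27 from limma), and Notch1 and Notch2 were at 0.21 and 0.16 (adjusted p = 0.72 and 0.77 from limma), or 0.017 and 0.0053 without virgin replicate 4. Epgn and Nrg1, ligands of the EGF receptor family, had the lowest log2 fold changes of the list, at -1.44 and -0.87 (adjusted p = 0.080 and 0.42 from limma). Nrg1 was at -0.53 without virgin replicate 4 and at -0.17 without virgin replicates 2 and 4, and Epgn was at -0.95 without both. Of 12 listed substrates of ADAMTS proteases or binding partners of ADAMTSL proteins, 2 were higher and 1 was lower at the same threshold, with a median of 0.04. Fbn2, fibrillin-2, averaged 5.22 ± 0.15 in parous and 6.51 ± 0.70 in virgin suspensions (SD, n = 4 each) and was dim in the parous arrays, and the proteoglycan Vcan, versican, averaged 8.37 ± 0.21 in parous and 9.28 ± 1.12 in virgin suspensions (SD, n = 4 each; log2 fold change -0.91, adjusted p = 0.53 from limma). Without virgin replicate 4 the difference in Vcan was -0.49, and without virgin replicates 2 and 4 it was 0.024, whereas that in Fbn2 was -0.74 without both. The basement membrane proteins Nid1 and Nid2 had log2 fold changes of 0.42 and 0.41 (adjusted p = 0.30 and 0.24 from limma).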

How the data were processed

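RNA from 8 pools, amplified by the Ambion WT Expression method, was hybridised to 1 array per pool. The deposited values are log2 RMA values, which the authors made with rma() of the affy package (version not given in the sources used here), that is, background-corrected, quantile normalized and summarised to 1 value per probe set. Array number limits the precision, and the table holds no detection calls.

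Probe sets were named through the platform annotation and current symbols, and all 108 member probe sets were named through the gene identifier. All 34760 probe sets were fitted with limma 3.58.1 in R 4.3.3 (lmFit and eBayes, no covariate, 2-sided, Benjamini-Hochberg adjustment), as in the methods. Confidence intervals are at 95%. Exact permutation tests ran over the 70 splits of 8 arrays. The procedure was tested on simulated data. Pools were counted as replicates.

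Members, gene lists and the naming rule were chosen with earlier results of these data known. Named were all TIMPs, the 4 highest and 4 lowest log2 fold changes and the 3 highest levels among members not dim in each other family, and members known from mammary or matrix biology. Of the network lists, up to 2 with the largest change were to be named, and other list genes were named after their values were seen. Log2 fold changes are parous minus virgin.

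By the paper's description each experiment would hold 1 parous and 1 virgin pool, but the labels do not say which. Replicate numbers were checked for pairing by correlating the deviations from the group means of same-numbered arrays. This gave 0.12, 0.18, -0.06 and 0.31 for numbers 1 to 4, whereas arrays of different numbers gave -0.26 to 0.19. With number 3 below 0 and no pairing in the labels, the main fit took the arrays as unpaired, although these correlations cannot exclude a pairing by experiment. Alternatives were the block, each array left out, virgin replicates 2 and 4 left out together, other normalizations, variance models and tests, filters on dim probe sets, other criteria and other probe sets per gene. Patterns in protein sequences had been planned and were not analysed here.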

Additional observations from a re-analysis of the deposited data

Results flagged for a closer look

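Each of the 37 members named by the rule was looked at in both groups of 4 arrays, 74 groups in all, for an array set apart by a gap to its nearest neighbour that exceeded Dixon's 95% critical share of the group's whole range. This picked out 5 groups, and chance alone picks out about 1 in 20.

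Timp4 in virgin replicate 4 had a log2 value of 6.846, while the other virgin arrays lay at 8.45 to 8.54. Adam8 in parous replicate 3 had 7.695, while the other parous arrays lay at 8.16 to 8.24. Adam33 in parous replicate 1 had 6.733, while the other parous arrays lay at 7.10 to 7.17. Adamts9 in virgin replicate 1 had 10.85, while the other virgin arrays lay at 10.34 to 10.42. Adamtsl5 in parous replicate 1 had 7.553, while the other parous arrays lay at 7.83 to 7.89. Without these arrays the log2 fold changes of Timp4, Adam8, Adam33, Adamts9 and Adamtsl5 were 0.09, -0.26, 0.43, 0.13 and 0.52, and none passed the criteria.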

How the results depend on the processing

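The count of members passing the criteria was 0 higher under all alternatives tried other than an unadjusted p, and 0 lower under all but 3. It was 1 lower (Mmp12) when only probe sets that name 1 gene were tested, and 0 to 1 lower when 1 array was left out, with 1 (Mmp12) without virgin replicate 3. With an unadjusted p under 0.05 and the fold criterion it was 5 higher and 4 lower. Of all 19935 genes, 419 were higher and 447 lower beyond the fold alone. Those that also met the p threshold are not counted here. With the replicate block, a pairing that the correlations cannot exclude, 0 members passed, and the count over all probe sets was 49, against 138. At an unadjusted p under 0.05 in limma were 25 members with the block (30.1%, against 15.5% of all genes). Without it there were 23 (27.7%, against 14.0%). With the block Timp4 had an unadjusted p of 0.013 and an adjusted p of 0.27 from limma, against 0.27 and 0.72 without it. Not every array correlated best with its own number. With 1 array left out, 14 to 24 members had an unadjusted p under 0.05 (16.9% to 28.9%), against 8.53% to 17.7% of all genes.

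Without virgin replicates 2 and 4 together the median log2 fold change was 0.060 for the TIMPs and 0.16 for the ADAMTSL genes, against 0.27 and 0.44 with all arrays. The MMP median of 0.02 was 0.24 with dim probe sets left out before the fit, and 0.21 and 0.18 with dim members left out by the array median and by the 95th percentile of 1228 chemosensory receptor genes (5.48), by which 32 members were dim. Leaving out 1 array gave medians of -0.02 to 0.06 for MMPs, 0.097 to 0.34 for TIMPs, 0.01 to 0.06 for ADAMs, 0.05 to 0.13 for ADAMTS and 0.39 to 0.52 for ADAMTSL genes.

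Signs turned for 4 named members near 0. Adamts9 (0.012) was -0.066 to 0.13 when 1 array was left out, -0.12 without virgin replicates 2 and 4, and -0.0044 with arrays centred on their medians. Mmp7 (-0.039) was -0.12 to 0.069 when 1 array was left out, 0.17 without virgin replicates 2 and 4, and 0.029 with array weights. Without virgin replicates 2 and 4, Timp1 was 0.036 and Adam15 was -0.062. All other named members kept their sign under these alternatives. The cause of these shifts was not tested. The 41 dim members lay below the array medians, where folds rest on low signal.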
